A study of Mus musculus with 12 samples.

Results

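*Clec4f*, *Cd5l*, *Vsig4*, *Marco*, *Timd4*, *Adgre1*, *Csf1r*, *Cd68*, *C1qa* and *C1qb* are 10 genes used as markers of Kupffer cells, the resident macrophages of the liver, and of macrophages in general. They were taken from the deposited gene table by their symbols, as 10 of its 48795 genes, and all 10 were among the 13812 genes with enough counts to be tested. The genes were chosen by name with earlier fits of these same counts in view, and which of the fitted values led to the choice is not stated. The values and p-values of the 10 genes are therefore given as a description and support nothing by themselves. Genes of 2 further macrophage lists, 32 in all, were compared in the same way. RNA was sequenced from the livers of 12 female mice, 4 months old and kept on normal chow, with 1 library per mouse. They were littermates matched for age, bred from *Nts*+/- parents, either *Nts*+/+ (wild type) or *Nts*-/- in the whole body for *Nts*, the gene of the gut and brain peptide neurotensin. Each genotype had 3 mice fed ad libitum and 3 fasted for 22 h. The groups were *Nts*+/+ fed (mice 254, 257 and 323), *Nts*+/+ fasted (mice 265, 282 and 322), *Nts*-/- fed (mice 277, 303 and 319) and *Nts*-/- fasted (mice 284, 290 and 295).

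Kupffer cells line the liver sinusoids, the capillaries that receive portal blood, where they take up bacteria, lipoproteins and dying cells. They keep their identity through signals from sinusoidal endothelial cells, stellate cells and hepatocytes, and they depend on the growth factors CSF1 and IL34 acting on the receptor encoded by *Csf1r*. In a whole liver, which is mostly hepatocytes by mass, their transcripts are a minor part of the RNA, and fewer macrophages and less marker RNA per macrophage cannot be told apart.

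*Nts* was counted in the 6 libraries labelled *Nts*-/-, with 46, 40 and 15 counts in fed mice 277, 303 and 319 and 12, 4 and 18 in fasted mice 284, 290 and 295, and had 0 counts in each of the 6 libraries labelled *Nts*+/+. How the *Nts*-/- allele was made is not given in the sources used here. *Nts* was thus counted under the *Nts*-/- label only, which is unlike a plain loss of its RNA in *Nts*-/- livers. The cause was not tested, so whether the labels are right is not known. Each direction between genotypes below is that of the libraries as labelled. The libraries held between 21999647 and 45273069 counts, and the biological coefficient of variation in the fit of all genes was 0.202. Values per mouse are CPM, the counts of a gene as a share of its library's total on the usual CPM scale, adjusted between libraries by TMM (a trimmed mean of log ratios) and written below as normalized CPM. A gene was called when the adjusted p of edgeR's quasi-likelihood test over the 13812 genes was under 0.05.

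The summed level of the 10 markers was highest in *Nts*+/+ fed livers. It was 655.0, 680.8 and 703.8 normalized CPM in *Nts*+/+ fed mice 254, 257 and 323, and 376.2, 331.4 and 561.2 in *Nts*+/+ fasted mice 265, 282 and 322. In *Nts*-/- livers it was 556.0, 471.2 and 425.2 in fed mice 277, 303 and 319, and 411.0, 612.1 and 440.3 in fasted mice 284, 290 and 295. The *Nts*+/+ fed group overlapped with no other group, whereas the other 3 groups overlapped with each other. The group means were 679.9 ± 24.4 (SD, n = 3), 422.9 ± 122 (n = 3), 484.1 ± 66.3 (n = 3) and 487.8 ± 109 (n = 3), in the same order.

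**Figure D1:**
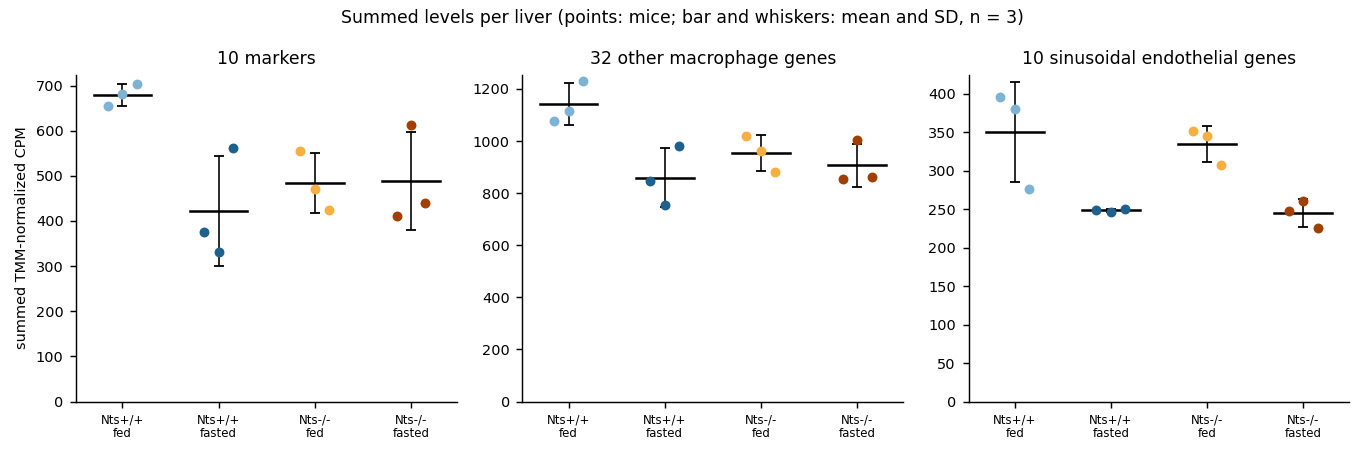
Summed TMM-normalized CPM per liver (y axis) of the 10 markers, of 32 other macrophage genes and of 10 sinusoidal endothelial genes in the 4 groups (x axis), with 1 point per mouse, the mean as a bar and the SD as whiskers (n = 3). The marker sum is at least 655.0 in the *Nts*+/+ fed livers and at most 612.1 in the other livers, whereas the endothelial sum is lower in both fasted groups.

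Receptors and secreted proteins typical of resident Kupffer cells made up 5 of the 10 markers. *Clec4f*, which encodes a lectin receptor found on mouse Kupffer cells, had 152.2, 163.5 and 178.5 normalized CPM in *Nts*+/+ fed mice 254, 257 and 323 and 80.7, 72.4 and 119.6 in *Nts*+/+ fasted mice 265, 282 and 322. In *Nts*-/- livers it had 135.9, 121.7 and 108.4 in fed mice 277, 303 and 319 and 90.6, 74.9 and 98.8 in fasted mice 284, 290 and 295. Each fasted liver was below each fed liver of its genotype, and each *Nts*-/- fed liver was below each *Nts*+/+ fed liver. *Cd5l*, which encodes a secreted scavenger protein of macrophages, had 148.2, 159.6 and 163.7 normalized CPM in *Nts*+/+ fed mice (254, 257, 323) and 108.5, 77.1 and 136.1 in *Nts*+/+ fasted mice (265, 282, 322). In *Nts*-/- livers *Cd5l* had 122.3, 109.3 and 86.4 in fed mice (277, 303, 319) and 111.7, 142.1 and 114.1 in fasted mice (284, 290, 295). The *Nts*+/+ fed livers were again the highest for *Cd5l*, and the 2 *Nts*-/- groups overlapped.

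*Vsig4*, an immunoglobulin-family receptor for complement fragments, lay within a narrow range in the *Nts*+/+ fed livers, with 49.7, 48.9 and 49.5 normalized CPM in mice 254, 257 and 323. It had 25.0, 29.6 and 45.4 in *Nts*+/+ fasted mice 265, 282 and 322, 47.9, 39.7 and 26.1 in *Nts*-/- fed mice 277, 303 and 319, and 32.2, 28.9 and 33.2 in *Nts*-/- fasted mice 284, 290 and 295. All 9 other livers were thus below the 3 *Nts*+/+ fed livers, but this order depended on the TMM adjustment. By library totals alone *Nts*-/- fed mouse 277 had 52.7 CPM, above the 50.5, 48.7 and 50.8 of *Nts*+/+ fed mice 254, 257 and 323. *Timd4*, which encodes a phosphatidylserine receptor used to engulf dying cells, had means of 12.2 ± 2.75, 8.10 ± 2.26, 7.99 ± 1.69 and 9.51 ± 5.12 normalized CPM (SD, n = 3 each) in the *Nts*+/+ fed, *Nts*+/+ fasted, *Nts*-/- fed and *Nts*-/- fasted groups. Its 2 highest values, 15.4 in *Nts*+/+ fed mouse 323 and 15.4 in *Nts*-/- fasted mouse 290, came from different groups.

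*Marco*, a scavenger receptor for bacteria and particles, varied most among the 10. It had 20.1, 12.5 and 38.0 normalized CPM in *Nts*+/+ fed mice 254, 257 and 323, 8.73, 5.22 and 15.6 in *Nts*+/+ fasted mice 265, 282 and 322, and 5.79, 3.69 and 6.20 in *Nts*-/- fed mice 277, 303 and 319. In the *Nts*-/- fasted livers it had 7.47, 104 and 10.2 in mice 284, 290 and 295. Mouse 290 stood far above the 11 others, and mouse 323, the next highest, was the highest of the *Nts*+/+ fed group. The *Nts*-/- fed livers were all below the *Nts*+/+ fed livers, and also below the *Nts*-/- fasted livers.

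The markers shared by macrophages of many tissues were *Adgre1*, *Csf1r* and *Cd68*. *Adgre1*, which encodes the F4/80 antigen, had 27.6, 27.0 and 37.6 normalized CPM in *Nts*+/+ fed mice 254, 257 and 323 and 11.9, 10.4 and 22.1 in *Nts*+/+ fasted mice 265, 282 and 322. It had 28.3, 22.5 and 17.2 in *Nts*-/- fed mice 277, 303 and 319 and 12.3, 38.5 and 18.1 in *Nts*-/- fasted mice 284, 290 and 295. Fed and fasted *Nts*+/+ livers did not overlap for *Adgre1*, and the highest value of all was in mouse 290. *Csf1r*, which encodes the receptor for CSF1 and IL34, had means of 77.2 ± 3.79 and 55.9 ± 16.0 normalized CPM in *Nts*+/+ fed and fasted livers and 62.9 ± 13.6 and 59.1 ± 16.8 in *Nts*-/- fed and fasted livers (SD, n = 3 each). *Cd68*, which encodes a glycoprotein of late endosomes and lysosomes, had means of 14.4 ± 4.01, 9.26 ± 2.82, 11.2 ± 1.82 and 8.55 ± 1.03 normalized CPM in the same order (SD, n = 3 each). For *Csf1r* and *Cd68* the fed and fasted *Nts*+/+ livers overlapped.

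*C1qa* and *C1qb* encode chains of C1q, the recognition molecule of the classical complement pathway, which macrophages secrete. *C1qa* had 75.9, 75.9 and 66.3 normalized CPM in *Nts*+/+ fed mice 254, 257 and 323, 37.5, 34.7 and 60.5 in *Nts*+/+ fasted mice 265, 282 and 322, 56.3, 44.2 and 61.3 in *Nts*-/- fed mice 277, 303 and 319, and 46.5, 61.8 and 46.8 in *Nts*-/- fasted mice 284, 290 and 295. *C1qb* had 78.8, 83.4 and 71.2 in *Nts*+/+ fed mice 254, 257 and 323, 41.3, 41.7 and 65.1 in *Nts*+/+ fasted mice 265, 282 and 322, 60.6, 47.9 and 54.5 in *Nts*-/- fed mice 277, 303 and 319, and 50.4, 59.8 and 49.6 in *Nts*-/- fasted mice 284, 290 and 295. For both chains the *Nts*+/+ fed livers were above the 9 other livers. *C1qc*, the gene of the third chain, is not one of the 10 markers and had means of 74.2 ± 13.6, 43.0 ± 11.7, 47.8 ± 4.10 and 47.7 ± 7.02 normalized CPM in the *Nts*+/+ fed, *Nts*+/+ fasted, *Nts*-/- fed and *Nts*-/- fasted groups (SD, n = 3 each). The ratio of *C1qa* to *C1qb* counts was between 0.833 and 1.13 in the 12 livers, and that of *C1qc* to *C1qb* between 0.832 and 1.03. The 3 genes lie on chromosome 4 of GRCm38, *C1qb* from 136880129 to 136886187, *C1qc* from 136889804 to 136893065 and *C1qa* from 136895917 to 136898803.

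**Figure D2:**
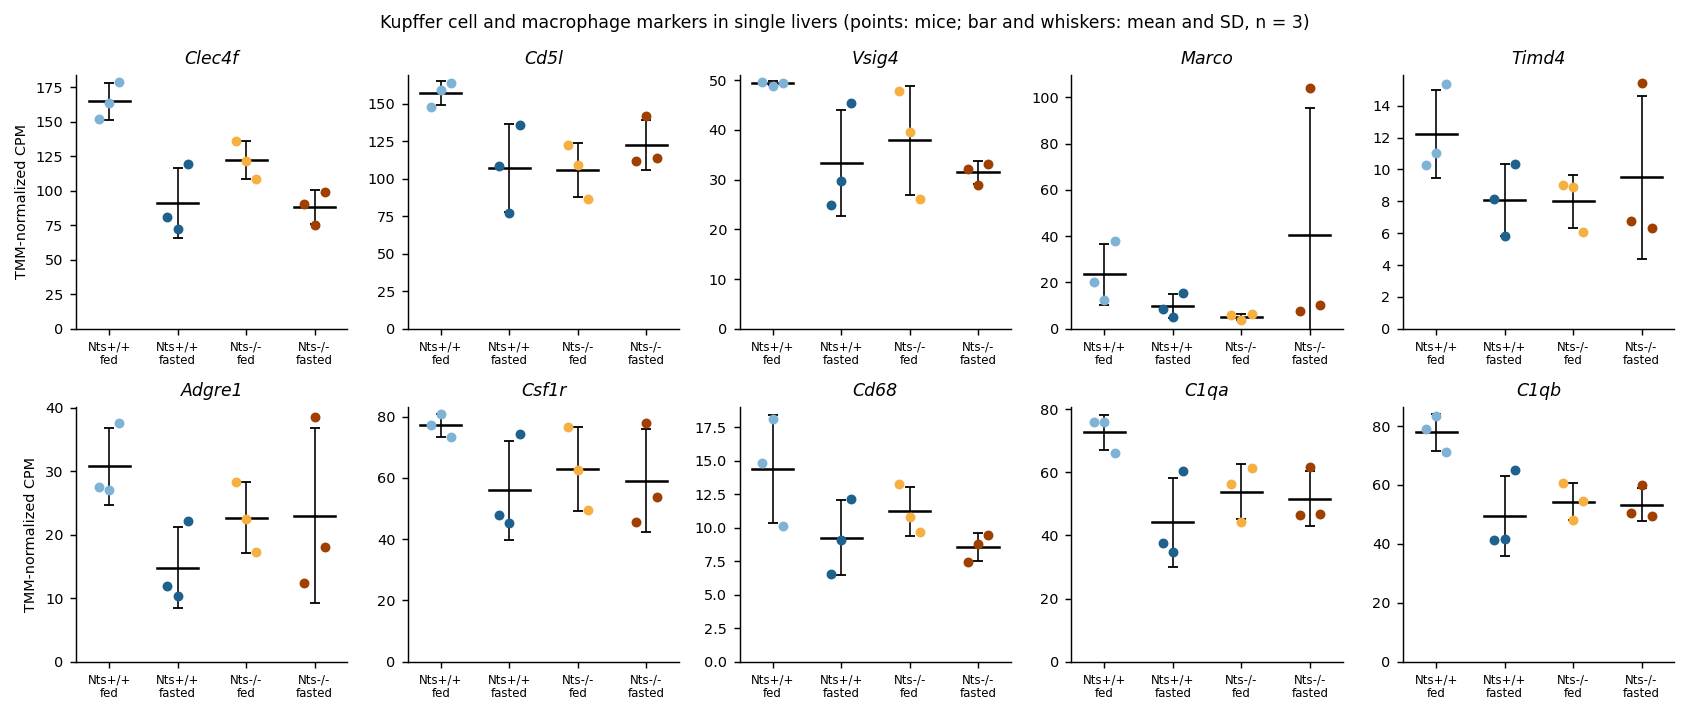
TMM-normalized CPM (y axis) of each of the 10 markers in the 4 groups (x axis), with 1 point per mouse, the mean as a bar and the SD as whiskers (n = 3; the lower whisker of *Marco* in *Nts*-/- fasted livers is cut at 0). For *Clec4f*, *Cd5l*, *Vsig4*, *C1qa* and *C1qb* the 3 *Nts*+/+ fed livers are above all others, and for *Marco* mouse 290 stands apart at 104. By library totals, not shown, *Nts*-/- fed mouse 277 is above the *Nts*+/+ fed livers for *Vsig4*.

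Many macrophage genes are bound by PU.1, the lineage factor encoded by *Spi1*, and GAGGAA is a well-known core of its sites. The 250 bases before the start of transcription were taken from RefSeq (GRCm38.p6) for 7 of the 10 markers and for *C1qc*. No sequence was used for *C1qa*, *Adgre1* or *Csf1r*. Of these 8 windows, 6 held GAGGAA on either strand (TTCCTC on the other), against 7639 of all 32851 RefSeq promoter windows of that length (23.3%). The longer GAGGAAGT, which contains the shorter one, was in 1 of the 8, that of *C1qc*, against 802 of all windows (2.44%). A match describes the letters in the window only. Shown are *C1qb*, called lower in fasted *Nts*+/+ livers, *Marco*, the most variable marker, *Vsig4*, the narrowest in *Nts*+/+ fed livers, and *Timd4*, whose window held no match. Each is written 5′ to 3′ on the gene's own strand and ends at the base before the start, with GAGGAA or TTCCTC in capitals. The windows are chr4:136886201-136886450 (minus strand) for *C1qb*, chr1:120505025-120505274 (minus strand) for *Marco*, chrX:96293439-96293688 (minus strand) for *Vsig4* and chr11:46810549-46810798 (plus strand) for *Timd4*.
C1qb: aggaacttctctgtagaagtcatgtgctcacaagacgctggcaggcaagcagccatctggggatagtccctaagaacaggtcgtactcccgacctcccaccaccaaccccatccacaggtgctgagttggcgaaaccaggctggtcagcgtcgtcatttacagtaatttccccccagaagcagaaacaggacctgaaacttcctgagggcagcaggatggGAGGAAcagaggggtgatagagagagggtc
Marco: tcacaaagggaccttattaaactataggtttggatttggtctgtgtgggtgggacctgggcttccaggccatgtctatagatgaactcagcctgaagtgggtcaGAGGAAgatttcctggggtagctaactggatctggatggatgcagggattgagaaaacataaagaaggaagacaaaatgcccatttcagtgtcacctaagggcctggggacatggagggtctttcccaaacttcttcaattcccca
Vsig4: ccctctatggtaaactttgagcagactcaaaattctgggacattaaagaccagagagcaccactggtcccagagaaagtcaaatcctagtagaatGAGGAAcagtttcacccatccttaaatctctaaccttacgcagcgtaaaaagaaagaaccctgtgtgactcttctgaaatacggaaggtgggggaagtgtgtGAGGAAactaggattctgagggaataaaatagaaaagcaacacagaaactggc
Timd4: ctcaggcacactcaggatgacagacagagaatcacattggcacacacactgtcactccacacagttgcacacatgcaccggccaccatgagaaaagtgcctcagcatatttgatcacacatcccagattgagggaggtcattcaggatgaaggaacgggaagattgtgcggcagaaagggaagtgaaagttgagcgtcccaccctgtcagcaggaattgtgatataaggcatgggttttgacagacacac
The match of *C1qb* began 30 bases before the start and that of *Marco* 146 bases before it. *Vsig4* held matches at 155 and 53 bases before its start.

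In *Nts*+/+ livers, fasting was compared with feeding to ask how the macrophage transcripts of the liver differ after 22 h without food. All 10 markers had lower fitted levels in fasted livers, with a median log2 fold change of -0.64, whereas the median of all genes tested was -0.0032. The test called 3 of the 10, all lower, where 9.19% of all genes tested were called lower. *Clec4f* fell 1.81-fold (log2 fold change -0.86 ± 0.18 SE, adjusted p = 0.0057), *C1qa* fell 1.64-fold (-0.72 ± 0.20, adjusted p = 0.026) and *C1qb* fell 1.57-fold (-0.66 ± 0.17, adjusted p = 0.017). Of the 7 others, *Cd5l* (-0.55, adjusted p = 0.059), *Cd68* (-0.63, adjusted p = 0.083) and *Vsig4* (-0.56, adjusted p = 0.098) came nearest to the threshold. *Adgre1* (-1.05 ± 0.42) and *Marco* (-1.25 ± 0.98) had larger fitted differences with larger errors and adjusted p of 0.12 and 0.43, and those of *Csf1r* and *Timd4* were 0.18 and 0.25. Fed and fasted livers did not overlap for 6 markers, all lower when fasted, against 17.9% of all genes that were apart in this direction.

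The calls depended on single mice. Without fed mouse 254 or 257, or without fasted mouse 265 or 282, *Clec4f* remained the 1 marker called, with adjusted p between 0.016 and 0.034, while those of *C1qa* lay between 0.077 and 0.11 and those of *C1qb* between 0.055 and 0.084. Without fasted mouse 322, whose marker levels were the highest of its group, 7 were called (*Clec4f*, *C1qa*, *C1qb*, *Cd5l*, *Cd68*, *Csf1r* and *Vsig4*). The Wald test of DESeq2 called 5, adding *Cd5l* and *Adgre1*, where it called 10.1% of all genes lower. Of all genes tested, edgeR called from 4.24 to 6.88% lower without mouse 254, 257, 265 or 282 and 8.00% without mouse 322.

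**Figure D3:**
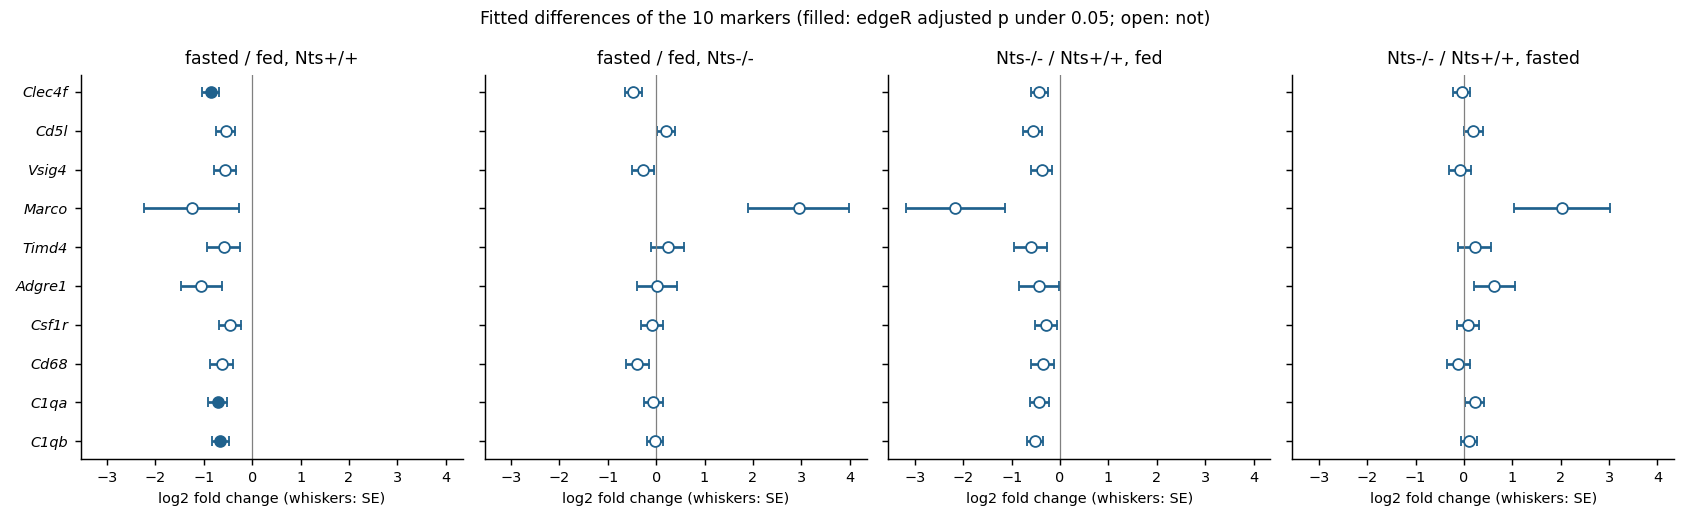
Fitted log2 fold changes (x axis) of the 10 markers (y axis) in the 4 comparisons, with the SE as whiskers and filled points for an edgeR adjusted p under 0.05. All 10 points are below 0 in fasted against fed *Nts*+/+ livers, where *Clec4f*, *C1qa* and *C1qb* are filled, and no point is filled in the other 3 comparisons.

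The 32 other macrophage genes, in the same comparison of *Nts*+/+ livers, had 26 with lower and 6 with higher fitted levels in fasted livers, with a median log2 fold change of -0.55. The test called 12 lower and 0 higher, where 8.91% of all genes tested were called higher, and fed and fasted livers were apart for 17, all lower. Among the 12 genes of Kupffer cell identity it called 4. *Folr2*, which encodes a folate receptor of resident macrophages, fell 2.64-fold (log2 fold change -1.40 ± 0.21 SE, adjusted p = 0.00080), from 19.8, 22.3 and 19.4 normalized CPM in fed mice 254, 257 and 323 to 7.35, 6.28 and 9.57 in fasted mice 265, 282 and 322. *Fcna*, which encodes a ficolin, a soluble pattern-recognition lectin, fell 1.46-fold (-0.55, adjusted p = 0.011), and the potassium channel gene *Kcna2* (-1.32, adjusted p = 0.036) and the complement gene *C6* (-0.80, adjusted p = 0.049) were also called lower. Fed and fasted livers were apart for the first 3 of these and overlapped for *C6*.

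Among the 20 genes of macrophages in general, 8 were called lower. *Aif1*, which encodes the actin-binding protein IBA1, fell 3.09-fold (-1.63 ± 0.29, adjusted p = 0.0024), from 6.72, 5.08 and 8.56 normalized CPM in fed mice 254, 257 and 323 to 2.37, 1.65 and 2.55 in fasted mice 265, 282 and 322. *Ctss*, a lysosomal protease of antigen processing, fell 1.73-fold (-0.79, adjusted p = 0.0040), *C1qc* 1.73-fold (-0.79, adjusted p = 0.011), and *Fcgr1*, a high-affinity IgG receptor, 2.36-fold (-1.24, adjusted p = 0.014). The others were *Msr1* (-0.67), *Fcer1g* (-0.73), *Tyrobp* (-0.68) and *Itgb2* (-0.66), a scavenger receptor, 2 signalling adaptors and an integrin chain. The 6 genes with higher fitted levels in fasted livers included *Cd14* (0.65, adjusted p = 0.19), *Cd163* (0.35, adjusted p = 0.58) and *Spic* (0.23, adjusted p = 0.75). Leaving out single mice left 7 (without 254), 5 (without 257), 6 (without 265) or 3 (without 282) of the 32 called, and *Folr2*, *Aif1* and *Ctss* were the 3 called without mouse 282. Without mouse 322 no call was lost, and *Laptm5*, *Slc11a1* and *Spi1* were added. Without mouse 323 *Laptm5* and *Spi1* were added, and *C6*, *Itgb2* and *Kcna2* were lost.

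In *Nts*-/- livers the same question gave no call among the 10 markers. Of these, 6 had lower and 4 had higher fitted levels in fasted livers, with a median log2 fold change of -0.045 beside -0.011 for all genes tested. This median depended on single mice. It was -0.25 without mouse 290, with 8 markers lower, and 0.069 without mouse 277, with 4 lower. With all mice kept, 2 markers (*Clec4f* and *Marco*) had an unadjusted p under 0.05, where 31.7% of all genes reached it. DESeq2 called 1 (*Marco*), where it called 20.2% of all genes. *Clec4f* had a log2 fold change of -0.47 ± 0.18 SE (adjusted p = 0.086), and *Cd68* one of -0.39 ± 0.24 (adjusted p = 0.29). For these 2 markers the *Nts*-/- fasted livers were all below the fed livers, against 18.1% of all genes. *Marco* was the 1 marker with all fasted livers above all fed livers, against 17.1% of all genes, with a log2 fold change of 2.95 ± 1.04 and an adjusted p of 0.091. Without mouse 290 its log2 fold change was 0.76 ± 0.54 (adjusted p = 0.42). *C1qa*, *C1qb*, *Csf1r* and *Adgre1* had fitted log2 fold changes of -0.061, -0.029, -0.090 and 0.014, each smaller than its SE, and each of these 4 changed sign when some single mouse was left out.

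Among the 32 other macrophage genes, *Nts*-/- fasted livers had 1 gene called lower and 1 called higher, against 9.14% and 7.7% of all genes tested. *Kcna2* fell 2.56-fold (-1.36 ± 0.40, adjusted p = 0.034), from 3.81, 3.04 and 1.09 normalized CPM in fed mice 277, 303 and 319 to 1.01, 1.39 and 0.78 in fasted mice 284, 290 and 295, and the groups overlapped. *Cd14*, which encodes a co-receptor for bacterial lipopolysaccharide, rose 2.23-fold (1.16 ± 0.33, adjusted p = 0.030), from 3.04, 2.53 and 2.98 normalized CPM to 4.90, 9.83 and 4.49 in the same order of mice, and the groups did not overlap. Of the 32, 0 were called without mouse 277 or mouse 303, 1 (*Cd14*) without mouse 284 and 1 (*Kcna2*) without mouse 290. Of these 2 genes, the call of *Kcna2* was also lost without mouse 295 and that of *Cd14* without mouse 319. Genes next in order of p were *Folr2* (-0.64, adjusted p = 0.052), *Id3* (-1.30, adjusted p = 0.080), *Clec1b* (0.38, adjusted p = 0.098) and *Fcgr3* (0.45, adjusted p = 0.12). The groups overlapped for *Folr2*, and the fasted livers were all lower for *Id3* and all higher for *Clec1b* and *Fcgr3*. Of the 32, 4 were apart and lower and 3 apart and higher, against 18.1% and 17.1% of all genes. The median of the 32 was 0.0011, with 16 lower and 16 higher. Without mouse 290 it was -0.18 with 22 lower, and without mouse 277 it was 0.060 with 13 lower. *Aif1*, *Ctss*, *C1qc* and *Fcgr1*, called in *Nts*+/+ livers, had log2 fold changes of -0.29, -0.063, -0.0051 and -0.38 here, with adjusted p of 0.53, 0.82, 0.99 and 0.44.

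**Figure D4:**
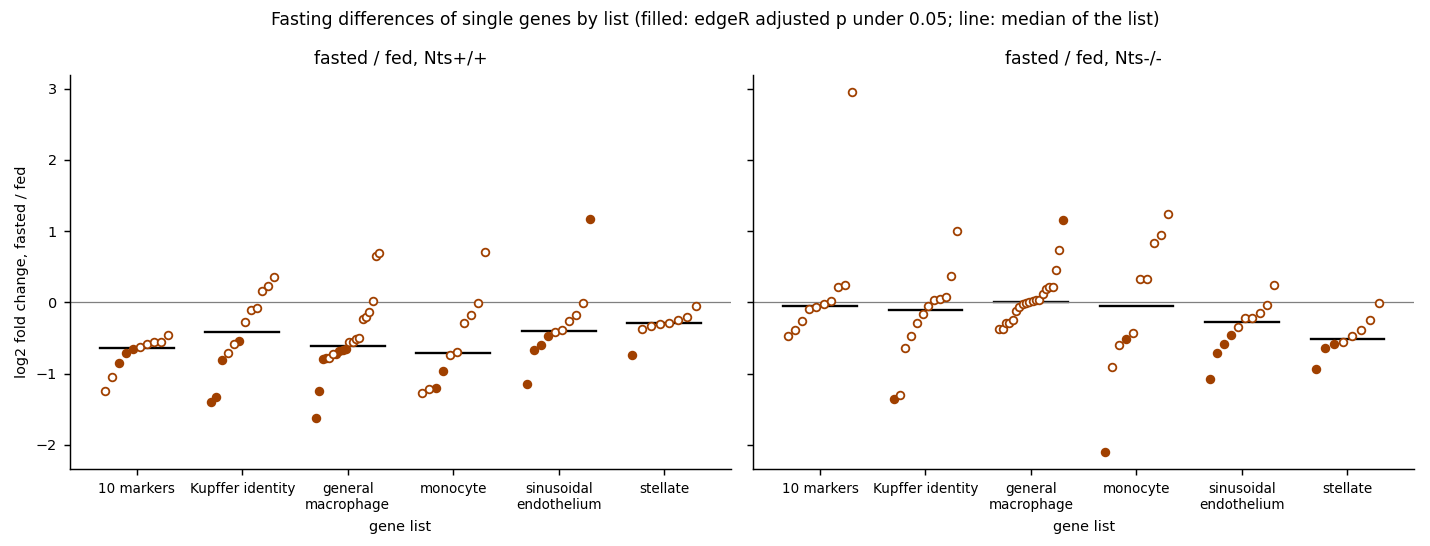
Fitted log2 fold changes of single genes in fasted against fed livers (y axis) by gene list (x axis) in *Nts*+/+ (left) and *Nts*-/- livers (right), with filled points for an edgeR adjusted p under 0.05 and lines at the list medians. The medians of the 10 markers are -0.64 and -0.045 in *Nts*+/+ and *Nts*-/- livers, and those of 10 sinusoidal endothelial genes are -0.40 and -0.28. The marker median in *Nts*-/- livers is -0.25 without mouse 290 and 0.069 without mouse 277.

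The difference between the 2 fasting responses was tested directly in the same fit. The fitted difference, as the response of *Nts*-/- minus that of *Nts*+/+ livers, was above 0 for all 10 markers, with a median of 0.64 on the log2 scale, but the test called 0 of them, where 0% of all genes tested were called. At an unadjusted p under 0.05 there were 4 (*Cd5l*, *Marco*, *C1qa* and *C1qb*), where 4.8% of all genes reached it, and DESeq2 called 0, where it called 0.0217% of all genes. *Cd5l* differed by 0.76 ± 0.27 SE (adjusted p = 0.90), *C1qa* by 0.65 ± 0.28 and *C1qb* by 0.63 ± 0.24, with the same adjusted p. *Marco* differed by 4.19 ± 1.43 (adjusted p = 0.90), and by 2.01 ± 0.72 (adjusted p = 0.92) without mouse 290. Of the 32 other macrophage genes, 27 had a fitted difference above 0, with a median of 0.51, and 0 were called by edgeR or DESeq2, with 10 at an unadjusted p under 0.05. The median of the 10 markers was 0.48 without mouse 290 and 0.91 without mouse 322, the extremes with 1 mouse left out. That of the 32 was 0.29 and 0.69 without the same mice. Many of these genes were correlated over the 12 livers, so their directions are not independent. The 2 lists that make up the 32 are given separately, and a difference between them was not tested. Of the 12 genes of Kupffer cell identity, 7 were above 0 and 5 below, with a median of 0.19. All 20 genes of macrophages in general were above 0, with a median of 0.54. The smallest unadjusted p among the 32 were those of *Ctss* (0.73 ± 0.22) and *Aif1* (1.34 ± 0.41). A response called in *Nts*+/+ livers and not in *Nts*-/- livers was therefore not shown to differ between them.

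Genotypes were compared within each feeding state. In fed livers all 10 markers had lower fitted levels in the libraries labelled *Nts*-/-, with a median log2 fold change of -0.43 beside 0.010 for all genes tested. These *Nts*+/+ fed mice are also the controls of the fasting comparison above, so the 2 sets of lower values share them. The test called 0 of the 10, where 0% of all genes were called, and DESeq2 called 0, where it called 0.0869% of all genes. At an unadjusted p under 0.05 there were 4, where 6.34% of all genes reached it, namely *C1qb* (-0.52 ± 0.17 SE), *Cd5l* (-0.57 ± 0.19), *Clec4f* (-0.43 ± 0.18) and *C1qa* (-0.43 ± 0.20), with adjusted p between 0.73 and 0.78. The groups were apart for 7 markers, all lower in *Nts*-/- livers, against 5.85% of all genes, and overlapped for *Adgre1*, *Csf1r* and *Cd68*. By library totals alone *Vsig4* overlapped as well, with 52.7 CPM in *Nts*-/- fed mouse 277. *Marco* had the largest fitted difference, -2.17 ± 1.02 (adjusted p = 0.78). Of the 32 other macrophage genes 30 had lower fitted levels, with a median of -0.34, and 0 were called by edgeR or DESeq2, with 10 at an unadjusted p under 0.05. Of the 12 genes of Kupffer cell identity, 10 were lower and 2 higher, with a median of -0.16. All 20 genes of macrophages in general were lower, with a median of -0.41. *Ctss* (-0.62 ± 0.16, adjusted p = 0.71) and *Fcna* (-0.46 ± 0.13, adjusted p = 0.71) had the smallest p of the 32.

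In fasted livers 7 markers had higher and 3 lower fitted levels in the libraries labelled *Nts*-/-, with a median log2 fold change of 0.15 beside -0.0087 for all genes tested. The test called 0 of the 10, where 0% of all genes were called, and DESeq2 called 0, where it called 0.029% of all genes. At an unadjusted p under 0.05 there were 0, where 4.96% of all genes reached it, and the groups overlapped for all 10, whereas 12.2% of all genes were apart in either direction. *Marco* had a log2 fold change of 2.03 ± 1.00 (adjusted p = 0.92), which was -0.16 ± 0.54 without mouse 290. Among the 9 other markers the fitted values ran from -0.12 (*Cd68*) to 0.63 (*Adgre1*). Of the 32 other macrophage genes 23 had higher fitted levels, 0 were called by edgeR or DESeq2, and 2 reached an unadjusted p under 0.05, *Aif1* (0.85 ± 0.29) and *Ptprc* (0.58 ± 0.25).

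The make-up of the marker counts was also compared between livers. *Clec4f* and *Cd5l* took the most counts in 11 of the 12 livers, which also depends on transcript length, with *Clec4f* at 21.3 to 25.8% of the counts on the 10 markers in those 11. In mouse 290 *Clec4f* was 12.2% and *Marco* 17.0%, whereas *Marco* was 0.784 to 5.40% in the 11 other livers. The ratio of *Marco* to *Clec4f* counts was 1.39 in mouse 290 and had a median of 0.0928 over the 12 livers. The ratio of *Timd4* to *Clec4f* counts was 0.206 in mouse 290 and 0.0557 to 0.101 in the others. Per kilobase of the canonical transcript in GENCODE vM39, a later annotation than that of the files, the mean level in *Nts*+/+ fed livers was highest for *Cd5l* (77.0 normalized CPM per kb), *C1qa* (66.9) and *Clec4f* (66.7) and lowest for *Timd4* (5.57) and *Adgre1* (9.16). *Vsig4* was not high in mouse 290, where it was 4.72% of the marker counts, below its share in every other liver.

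**Figure D5:**
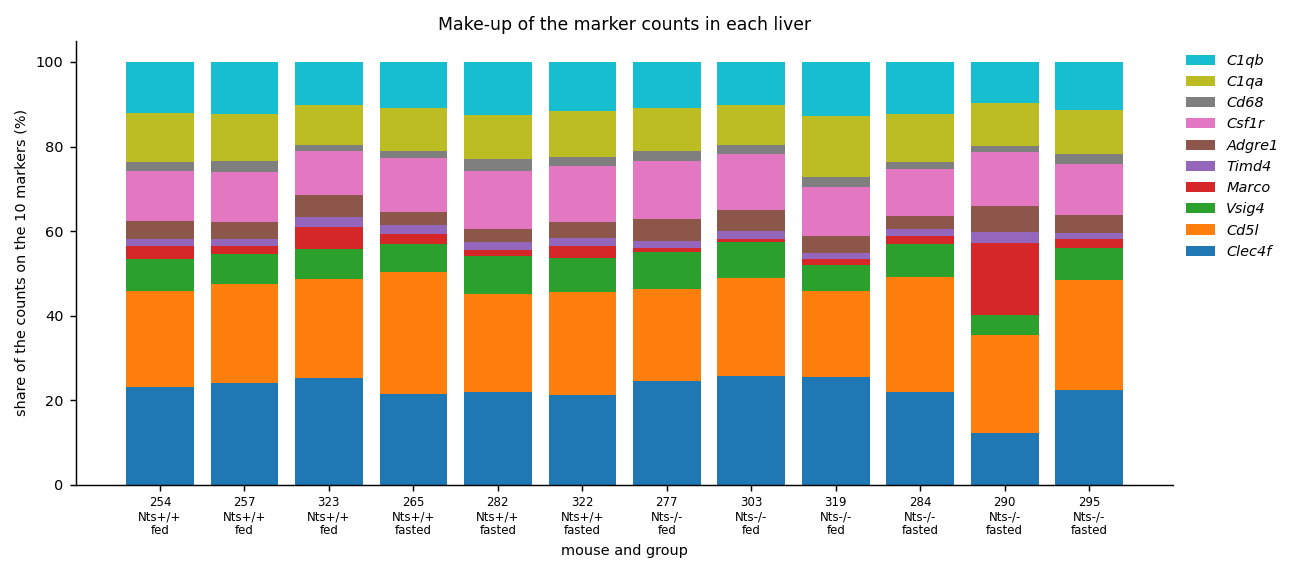
Share of each marker (colours, y axis in percent) in the counts on the 10 markers of each liver (x axis, 1 bar per mouse). *Marco* takes 17.0% in *Nts*-/- fasted mouse 290 and at most 5.40% in the 11 others.

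Over the 12 livers, which share groups and library depth, the log2 levels of *C1qa* and *C1qb* had the highest Pearson correlation of any pair of markers (r = 0.96), followed by *Csf1r* and *Adgre1* (r = 0.91). The lowest were those of *Marco* with *Cd68* (r = 0.04) and with *Clec4f* (r = 0.07). The mean of the standardized log2 levels of the 10 was most like *Slc11a1* (r = 0.96), *Ncf1* (r = 0.95), *Itgb2* (r = 0.95), *Tyrobp* (r = 0.95) and *Ms4a6c* (r = 0.94) among all other genes tested, over 12 livers. With the mean of each group subtracted, the 5 most alike were *Ncf1* (r = 0.99), *Mapkapk3* (r = 0.97), *Idua* (r = 0.97), *Nckap1l* (r = 0.95) and *Slc11a1* (r = 0.95).

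Some genes of other cells of the liver were called in the same comparisons, and their part in the marker values was not tested. Of all genes tested, 9.19% were called lower and 8.91% higher in fasted *Nts*+/+ livers, and 9.14% lower in fasted *Nts*-/- livers. Of 10 genes of sinusoidal endothelium, the cells that Kupffer cells are attached to, 4 were called lower and 1 higher in fasted *Nts*+/+ livers and 4 lower in fasted *Nts*-/- livers. *Clec4g*, an endothelial lectin, fell 2.22-fold (adjusted p = 0.0010) and 2.11-fold (adjusted p = 0.0015), and *Dnase1l3*, a secreted nuclease, 1.60-fold (adjusted p = 0.011) and 1.51-fold (adjusted p = 0.021), in *Nts*+/+ and *Nts*-/- livers. *Lyve1*, a hyaluronan receptor, rose 2.25-fold (adjusted p = 0.0055) in *Nts*+/+ livers and had a log2 fold change of 0.25 (adjusted p = 0.52) in *Nts*-/- livers. The summed endothelial level ran from 275.9 to 395.1 normalized CPM in *Nts*+/+ fed, 246.5 to 250.0 in *Nts*+/+ fasted, 307.4 to 351.7 in *Nts*-/- fed and 225.3 to 260.6 in *Nts*-/- fasted livers, so that both fasted groups were below their fed groups. Of 8 stellate cell genes, 1 (*Lrat*, which esterifies retinol) was called lower in *Nts*+/+ and 3 (*Rgs5*, *Lrat* and *Reln*) in *Nts*-/- fasted livers, and the sum ran from 446.2 to 530.1, 399.0 to 438.6, 456.1 to 513.3 and 379.5 to 415.6 normalized CPM in the same order of groups.

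Genes of blood cells were counted in the same livers. Shares of all genes tested were 9.19% called lower and 8.91% higher in fasted *Nts*+/+ livers, and 9.14% and 7.7% in fasted *Nts*-/- livers. The 10 monocyte genes summed to 21.7 to 26.0 normalized CPM in *Nts*+/+ fed, 14.8 to 17.1 in *Nts*+/+ fasted, 15.9 to 18.8 in *Nts*-/- fed and 16.6 to 21.5 in *Nts*-/- fasted livers. Of these, *Plac8* (-0.97, adjusted p = 0.0019) and the chemokine receptor gene *Ccr2* (-1.21, adjusted p = 0.014) were called lower in fasted *Nts*+/+ livers, and *Cx3cr1* (-2.09, adjusted p = 0.016) and *Plac8* (-0.52, adjusted p = 0.048) in fasted *Nts*-/- livers. *Cx3cr1* was barely detected, with 1 count in its lowest mouse and at most 0.661 normalized CPM over the 12 livers. The 7 neutrophil genes summed to 2.14 to 10.6 and the 6 dendritic cell genes to 1.64 to 4.15 normalized CPM over the 12 livers. Of these, 4 neutrophil and 4 dendritic cell genes had enough counts to be tested, and 0 of them were called in any comparison by edgeR or DESeq2, with an unadjusted p under 0.05 in edgeR for 1 gene of each list in 1 comparison. *Mmp8* was at 0 counts in 1 mouse and *Cd209a* in 3. The 9 T and NK cell genes summed to 4.65 to 8.94 normalized CPM, and 1 of the 8 tested, the granzyme gene *Gzma*, was called lower in fasted *Nts*+/+ livers (-1.45, adjusted p = 0.024). The 5 B cell genes summed to 26.2 to 81.2 normalized CPM with none called. Of 6 hepatocyte genes, with summed levels of 114500 to 144200 normalized CPM, 1 was called higher (*Apoa1*) and 2 lower (*Serpina1c* and *Ttr*) in each fasting comparison, and of 5 erythroid genes, with 233.3 to 627.6, only *Alas2* was called, in fasted *Nts*-/- livers (-1.04, adjusted p = 0.0097).

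Of 6 genes of signals to macrophages, *Csf1*, a ligand of the *Csf1r* product, was called lower in fasted *Nts*+/+ livers (-0.69 ± 0.23 SE, adjusted p = 0.049), where 9.19% of all genes tested were. *Csf1* had a log2 fold change of -0.63 (adjusted p = 0.073) in fasted *Nts*-/- livers. None of the 6 was called in the other comparisons.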

How the data were processed

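Total RNA of snap-frozen livers was sequenced by the authors. The deposited values are expected counts, fractional estimates of the reads of each gene, for 48795 genes with GRCm38 positions (1220 without a symbol). The submitters' processing notes name Trimmomatic, RSEM and GRCm38, without versions. The aligner and the strand setting are not given in the sources used here, so reads shared with overlapping or near-identical genes cannot be told apart. Columns of other samples numbered 0. The 10 markers, the other gene lists and the tests were chosen with earlier results of these data known.

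Expected counts were rounded to whole numbers (7.94% were not whole). In R 4.3.3, edgeR 4.0.16 kept 13812 genes (filterByExpr), scaled them with TMM and fitted 1 mean per group over all 12 mice, with robust quasi-likelihood tests and Benjamini-Hochberg adjustment over all genes tested. Replicates are separate mice, and no pair of libraries agreed within sampling noise. Genes were matched by symbol, which found 6 of the 7 hepatocyte genes and all others. For *Itgam*, which has more than 1 entry, the entry with more counts was used. At these depths 3 counts in a library are the least taken as detected, for counting error only.

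Named are the 10 markers, *Nts*, *C1qc*, from each other list up to 3 genes past the threshold per comparison (with none past it, at most the 1 with the smallest p), up to 6 of the 32 other macrophage genes in each fasting comparison, and the 5 genes most like the markers over 12 mice. Further genes are named where they make up a count or are said to have been chosen after their values were seen. Alternatives were RLE scaling, library totals only, no filter, at least 10 counts in every mouse, the Wald test of DESeq2 1.42.0, only the 6 mice compared, removal of a trend with transcript length (GENCODE vM39 canonical transcripts), and leaving out each mouse. Promoter sequences were RefSeq's (GRCm38.p6). On simulated data for fasted against fed *Nts*+/+ livers with 13642 genes, 93 of 100 genes changed 4-fold and 48 of 100 changed 2-fold were recovered, with 7 false calls.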

Additional observations from a re-analysis of the deposited data

Results flagged for a closer look

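For 4 markers, each liver of a group lay on one side of the mean of its reference group in one comparison and on the other side in the matching comparison, while the direct test of the difference did not pass (edgeR quasi-likelihood test, adjusted p = 0.90 for each). For *Cd5l*, the 3 *Nts*+/+ fasted livers were below the mean of the *Nts*+/+ fed livers and the 3 *Nts*-/- fasted livers above the mean of the *Nts*-/- fed livers, a difference between the fasting responses of 0.76 on the log2 scale. The same 0.76 separates its genotype effects, with the *Nts*-/- livers below the *Nts*+/+ mean when fed and above it when fasted. For *Marco*, the fasting responses were opposite in the same way, with a difference of 4.19 on the log2 scale, or 2.01 without mouse 290. The *Nts*-/- livers were likewise below the *Nts*+/+ mean when fed and above it when fasted for *C1qa*, with a difference of 0.65, and for *C1qb*, with a difference of 0.63.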

How the results depend on the processing

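In fasted against fed *Nts*+/+ livers, 3 markers were called by edgeR, 5 by DESeq2 and from 1 to 7 with 1 mouse left out, and of the 32 other macrophage genes 12 were called, or from 3 to 15 with 1 mouse left out. Of all genes tested there, edgeR called 9.19% lower, DESeq2 10.1%, and edgeR from 4.24 to 8.41% with 1 mouse left out. In *Nts*-/- livers, 0 markers were called, 1 with library totals only (*Clec4f*, adjusted p = 0.032) and 1 by DESeq2 (*Marco*, adjusted p = 0.011), and of the other 32 genes 2 were called, 4 by DESeq2 and from 0 to 3 with 1 mouse left out. Of all genes tested in fasted against fed *Nts*-/- livers, edgeR called 9.14% lower and 7.7% higher, and DESeq2 called 20.2% in either direction. Library totals called 15.7% lower. With 1 mouse left out, edgeR called from 5.14 to 10.1% lower and from 633 to 1215 genes higher. Library totals in place of TMM moved the median log2 fold change of all genes to -0.18 in that comparison and to -0.12 for the difference of the fasting responses, so that the *Adgre1* value of -0.15 in fasted *Nts*-/- livers, of opposite sign to the one reported, is near that shift. Of all genes, library totals called 1446 lower and 883 higher in fasted *Nts*+/+ livers (1270 and 1231 with TMM) and 2171 lower and 576 higher in fasted *Nts*-/- livers (1263 and 1063 with TMM). The cause of the other shifts was not tested. With 1 mouse left out, the log2 fold changes that crossed 0 in fasted against fed *Nts*-/- livers ran from -0.29 to 0.48 (*Timd4*), -0.57 to 0.31 (*Adgre1*), -0.34 to 0.080 (*Csf1r*), -0.21 to 0.041 (*C1qa*) and -0.12 to 0.058 (*C1qb*). In fasted *Nts*-/- against *Nts*+/+ livers they ran from -0.18 to 0.20 (*Clec4f*), -0.26 to 0.20 (*Vsig4*), -0.16 to 2.54 (*Marco*), -0.31 to 0.45 (*Timd4*), -0.17 to 0.34 (*Csf1r*), -0.32 to 0.13 (*Cd68*) and -0.010 to 0.36 (*C1qb*). No marker changed direction in the other 3 comparisons under any alternative run, and 0 markers were called in either genotype comparison or for the difference of the fasting responses. A fit of only the 6 mice compared was not run for the difference of the fasting responses, which needs all 12. No paired analysis was possible because the groups share no replicate numbers. With 3 mice a group, a count of 0 calls does not show equal levels, and the SE of *Marco* was the widest of the 10 in every comparison.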

Other observations

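In fasted *Nts*+/+ livers 2 of the 9 tested genes of lipid-associated macrophages and 2 of the 4 tested inflammatory mediators were called lower, where 9.19% of all genes tested were. In fasted *Nts*-/- livers 1 of the 9 and 0 of the 4 were called lower, where 9.14% of all genes were. Of 10 genes of lipid-associated macrophages, 9 were tested, and *Fabp5*, which encodes a fatty acid-binding protein, fell 16.1-fold in fasted *Nts*+/+ livers (edgeR quasi-likelihood test, adjusted p = 0.0043) and 18.7-fold in fasted *Nts*-/- livers (adjusted p = 0.0037). *Spp1*, which encodes osteopontin, fell by 1.00 on the log2 scale in fasted *Nts*+/+ livers (adjusted p = 0.040) and had a log2 fold change of -0.74 in fasted *Nts*-/- livers (adjusted p = 0.11). The list summed to 110.0 to 202.6 normalized CPM in *Nts*+/+ fed, 46.4 to 87.2 in *Nts*+/+ fasted, 129.8 to 172.1 in *Nts*-/- fed and 53.6 to 65.5 in *Nts*-/- fasted livers. Of 11 inflammatory mediators 4 had enough counts to be tested. The chemokine genes *Cxcl10* (log2 fold change -1.50, adjusted p = 0.0046) and *Ccl2* (-2.30, adjusted p = 0.019) were called lower in fasted *Nts*+/+ livers, and 0 of the 4 in fasted *Nts*-/- livers. *Nos2* was at 0 counts in 6 mice, *Cxcl2* in 4, and *Il6* and *Il10* in 3 each.

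Mouse 290, in the *Nts*-/- fasted group, was above every other mouse by a ratio of at least 1.5 (with 0.5 CPM added to each value) for 42 tested genes, a count within the range of 6 to 44 over the 12 mice. Of the 42, 2 were among the 10 markers and 32 other macrophage genes, and in each of the 11 other mice 0 of the genes above that ratio were. The 4 genes with the highest ratio in mouse 290, named after their values were seen, were *Gm12191* with 29.8 against 1.05 normalized CPM in the next highest mouse, the chemokine gene *Cxcl13* with 85.2 against 15.2, *Gm15675* with 5.07 against 1.48 and *Marco* with 104 against 38.0. *Clec4f* and *Vsig4* had 74.9 and 28.9 normalized CPM in mouse 290, each the lowest of the *Nts*-/- fasted group.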
